A study of Mus musculus with 2 samples.

Results

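Single-nucleus RNA sequencing of mouse kidney was used to follow 9 genes better known from neurons and muscle, Kcnip4, Kcnh8, Kcnmb2, Kctd16, Ctnnd2, Nalcn, Cntnap5a, Syt2 and Sgcd. They were 9 of the 32285 genes in the count matrices, and they were picked because their counts differed strongly between a 5/6 nephrectomy library and a sham library, 7 of them higher and 2 lower after nephrectomy. The ratios between the libraries therefore describe the genes and support nothing by themselves. The mice were 11-week-old males of a genotype written as T1+/+ in both groups. The nephrectomy group lost the right kidney, and 1 week later the poles of the left kidney were tied off with suture. The sham group had both flanks cut, the kidney exposed and the wounds closed. Kidney was taken 4 weeks after surgery, frozen, and its nuclei were isolated. Each group was 1 library, and how many animals or which piece of the kidney went into it is not given in the sources used here.

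Of the 9 genes, 4 encode ion channel proteins. Kcnip4 encodes a calcium-binding protein that rides on A-type potassium channels, Kcnh8 the pore of an ELK-type voltage-gated potassium channel, Kcnmb2 an inactivating auxiliary subunit of the large-conductance calcium-activated (BK) potassium channel, and Nalcn the pore of a sodium leak channel that sets the resting potential of neurons. Kctd16 encodes an auxiliary subunit of the GABA-B receptor, Ctnnd2 delta-catenin, which binds classical cadherins at cell contacts, and Cntnap5a an adhesion protein of the neurexin superfamily. Syt2 encodes a calcium sensor of vesicle release, and Sgcd delta-sarcoglycan, part of the dystrophin complex of muscle membrane. In the kidney, the proximal tubule reabsorbs most of the filtrate and is the segment most prone to injury. Proximal tubule cells that fail to recover lose transporters and express Vcam1, an adhesion molecule, Havcr1, the kidney injury molecule, and Dcdc2a, a doublecortin domain gene.

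The sham library held 3084 barcodes with a median of 5140 unique molecular identifiers (UMIs), and the nephrectomy library 3299 barcodes with a median of 6844. After filtering, 2857 sham and 3058 nephrectomy nuclei with 19176817 and 25136427 UMIs were compared, and 2 barcodes occurred in both libraries. Levels are given as UMIs per 1000000 UMIs of the same nuclei (CPM). A carrier is a nucleus with at least 1 UMI of the gene. Cell classes were named from marker genes and mean nuclei like that type. All intervals are 95% intervals that cover counting error only, and since each group is a single library, no p-value is given for any difference. Some clusters were found almost wholly in 1 library, so a cluster of that kind may be that library and not a cell type.

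All 9 genes passed the minimum of 20 UMIs over both libraries, and all 9 differed by at least 1.5-fold between the whole libraries, where 20.2% of all genes tested did. The rule picked the genes on that contrast, so nothing is read from the count. Over all nuclei Kcnip4 had 168 sham and 2562 nephrectomy UMIs, Kcnh8 had 8 and 167, and Kcnmb2 had 26 and 280. Kctd16 had 62 and 367 UMIs, Ctnnd2 had 50 and 325, Syt2 had 25 and 163, and Sgcd had 264 and 820. Nalcn had 157 sham and 32 nephrectomy UMIs, and Cntnap5a had 838 and 219. The genes did not share a place. In the nephrectomy library injured proximal tubule-like nuclei held 86.1% of the Kcnip4 and 68.3% of the Kcnh8 UMIs, parietal epithelial-like nuclei 87.1% of the Kcnmb2 UMIs, and intercalated B-like nuclei 82.8% of the Kctd16 UMIs. Thick ascending limb-like nuclei held 59.7% of the Ctnnd2 and 60.1% of the Syt2 UMIs. Sgcd was spread over the distal nephron, with 22.9% of its UMIs in intercalated B-like nuclei as its highest share. In the sham library, 70.1% of the Nalcn and 65.3% of the Cntnap5a UMIs lay in nuclei named proximal tubule S2-like.

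**Figure D1:**
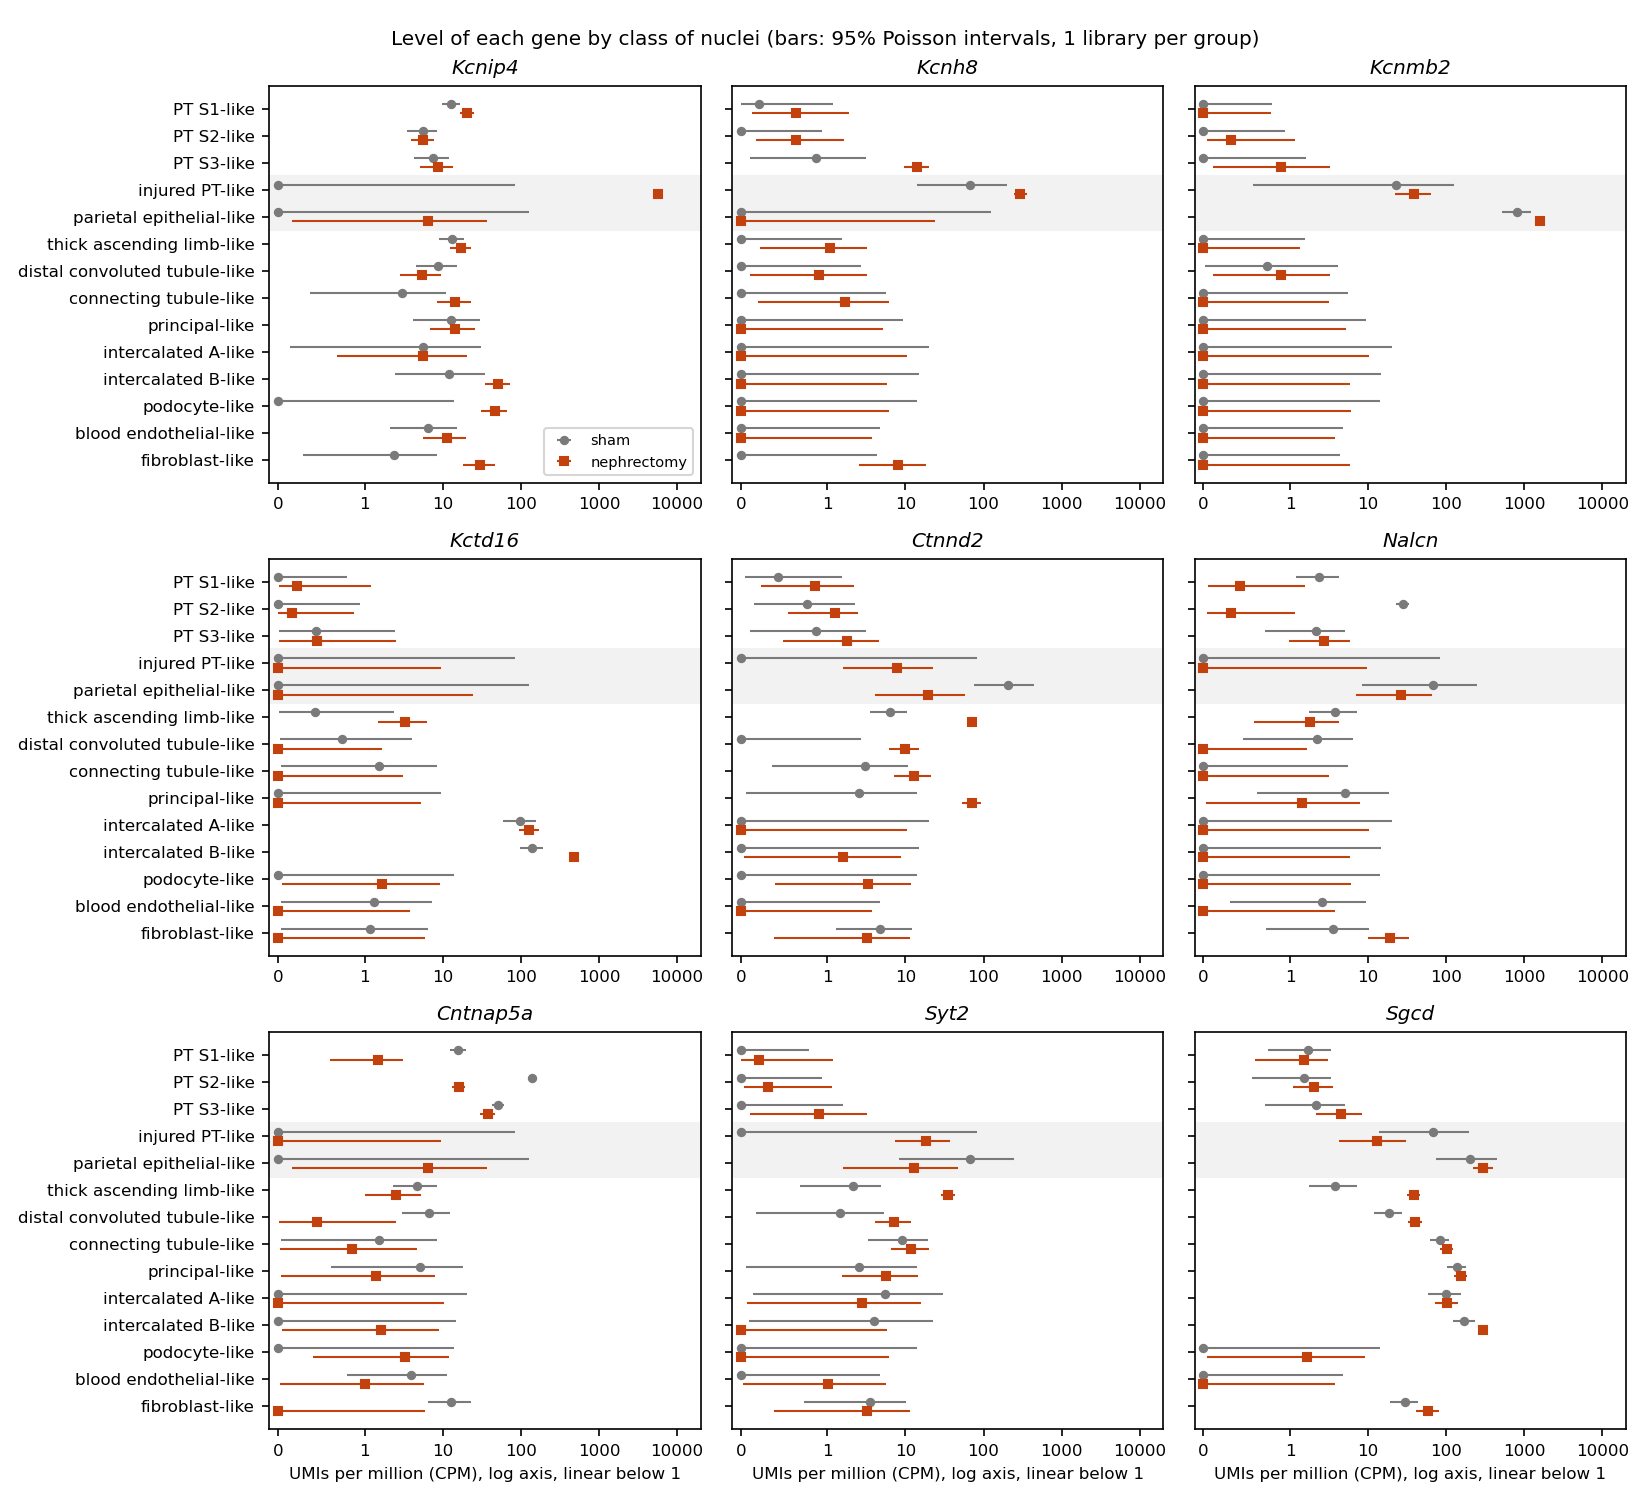
Each panel plots the level of 1 gene (CPM, a scale that is linear below 1 and logarithmic above) in each class of nuclei for the sham and nephrectomy libraries, with 95% Poisson intervals and 1 library per group. The genes peak in different classes, such as Kcnmb2 in parietal epithelial-like nuclei at 816.5 sham and 1588 nephrectomy CPM and Kctd16 in intercalated B-like nuclei at 139.6 and 483.8 CPM. The S2-like row pools clusters that differ between the libraries.

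Neuron markers were near 0 in most of these classes. A list of 7 neuron markers had 0 sham UMIs and 1 nephrectomy UMI in injured proximal tubule-like nuclei, with 6 of the 7 at 0 in the nephrectomy library. The list had 0 and 2 UMIs in parietal epithelial-like nuclei and 1 and 1 in intercalated B-like nuclei. In thick ascending limb-like nuclei it had 149 and 106 UMIs, with Snap25, Stmn2 and Th at 0 in both libraries. Kcnmb2 belonged mainly to parietal epithelial-like nuclei, which line Bowman's capsule and are no tubule segment, so the description of the genes as tubular covered the other 8.

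In proximal tubule-like nuclei 7 of the 9 genes reached 20 UMIs, and 6 of these differed by at least 1.5-fold, 4 higher and 2 lower, beside 23.1% of all genes tested. The genes were picked on the contrast between the libraries, so nothing is read from this count either. The 4 higher genes were Kcnip4, Kcnh8, Kcnmb2 and Ctnnd2. Of these, Kcnh8, Kcnmb2 and Ctnnd2 reached the minimum only with their nephrectomy UMIs, and Kcnmb2 had 1 sham UMI. The Kcnmb2 ratio of 15.23 depended on the clustering. It was 1.095 without the injured clusters and 1.08 with a finer clustering (resolution 2). Kcnip4 had 99 UMIs in 56 of 1069 sham nuclei and 2357 UMIs in 89 of 1193 nephrectomy nuclei. Its level was 9.06 CPM in sham and 172.9 CPM in nephrectomy, a ratio of 19.1 (15.6 to 23.6). The share of carriers moved far less, from 5.24% (3.98 to 6.75) to 7.46% (6.03 to 9.10), so the ratio of UMIs reflects more UMIs in a few nuclei. Blood endothelial-like nuclei, a type not expected to use the gene, had carriers at 2.11% in sham and 2.68% in nephrectomy, at median depths of 2819 and 3246 UMIs against 8958 and 10226 in proximal tubule-like nuclei. With every nucleus thinned to 1000 UMIs, carriers were 0.770% and 2.32% of proximal tubule-like nuclei and 0.258% and 0.619% of endothelial-like nuclei.

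The Kcnip4 UMIs of the nephrectomy library sat in very few nuclei. Injured proximal tubule-like nuclei, of which there were 6 in sham and 32 in nephrectomy, held 0 sham and 2206 nephrectomy UMIs. The 0 in sham has a 95% upper bound of 83.1 CPM, and the nephrectomy level was 5725 CPM (5489 to 5969). In nephrectomy 21 of the 32 nuclei were carriers, 1 nucleus held 653 UMIs, and 3 nuclei held at least 50% of the UMIs. Among the injured nuclei, cluster 30 (1 sham and 20 nephrectomy nuclei) had 2142 nephrectomy UMIs in 16 carriers, and cluster 31 (5 and 12 nuclei) had 64 in 5 carriers. In the whole nephrectomy library 14 nuclei had 20 or more Kcnip4 UMIs and together held 85.7% of them, and 12 of the 14 were injured proximal tubule-like. No sham nucleus exceeded 15 UMIs. In the other proximal tubule clusters the libraries were closer. In the main S1-like cluster (cluster 0) the level was 16.4 CPM in sham and 20.7 CPM in nephrectomy, with a ratio of 1.26 (0.894 to 1.79). In the S3-like cluster 7 the levels were 7.87 and 8.46 CPM. Without the injured clusters the ratio in proximal tubule-like nuclei was 1.25, and without the 5 richest nuclei of each library it was 7.42.

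A few nephrectomy nuclei of other classes also held several Kcnip4 UMIs. Podocyte-like nuclei had 0 sham UMIs and 28 nephrectomy UMIs, the latter in 4 of 78 nuclei, and intercalated B-like nuclei had 3 and 32, of which 28 lay in 1 nucleus. Fibroblast-like nuclei had 2 and 19 UMIs, of which 2 and 17 lay in cluster 8. The unnamed cluster 1 had 3 and 19, a ratio of 8.29 (2.44 to 43.7), and connecting tubule-like nuclei 2 and 17. In nephrectomy these UMIs lay in 6 nuclei of each of the last 2. In these classes the gene was thus limited to a handful of nuclei.

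Kcnh8 was scarcer and had the same home. In proximal tubule-like nuclei it had 6 UMIs in 4 sham nuclei and 152 UMIs in 29 nephrectomy nuclei, or 0.549 and 11.2 CPM, a ratio of 20.3 (9.12 to 56.2). The ratio was 11.8 with equal weight per nucleus, 11.6 at 1000 UMIs per nucleus, 10.4 without the injured clusters and 3.74 without nuclei holding a UMI of Vcam1, Havcr1 or Dcdc2a. Injured proximal tubule-like nuclei held 3 sham UMIs, all in 1 of 6 nuclei, and 114 nephrectomy UMIs in 19 of 32 nuclei. Within that class the levels were 67.5 CPM in sham and 295.9 CPM in nephrectomy, with a ratio of 4.38 (1.46 to 21.6), and 5 of the 6 sham nuclei had no UMI. The S3-like cluster 7 was a further site, with 1 sham UMI and 31 nephrectomy UMIs, the latter in 4 of 153 nuclei and up to 14 in 1 nucleus. Of the 39 nephrectomy carriers of Kcnh8, 18 also carried Kcnip4 (46.2% of Kcnh8 and 10.8% of Kcnip4 carriers), and in sham 0 of 6 did.

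**Figure D2:**
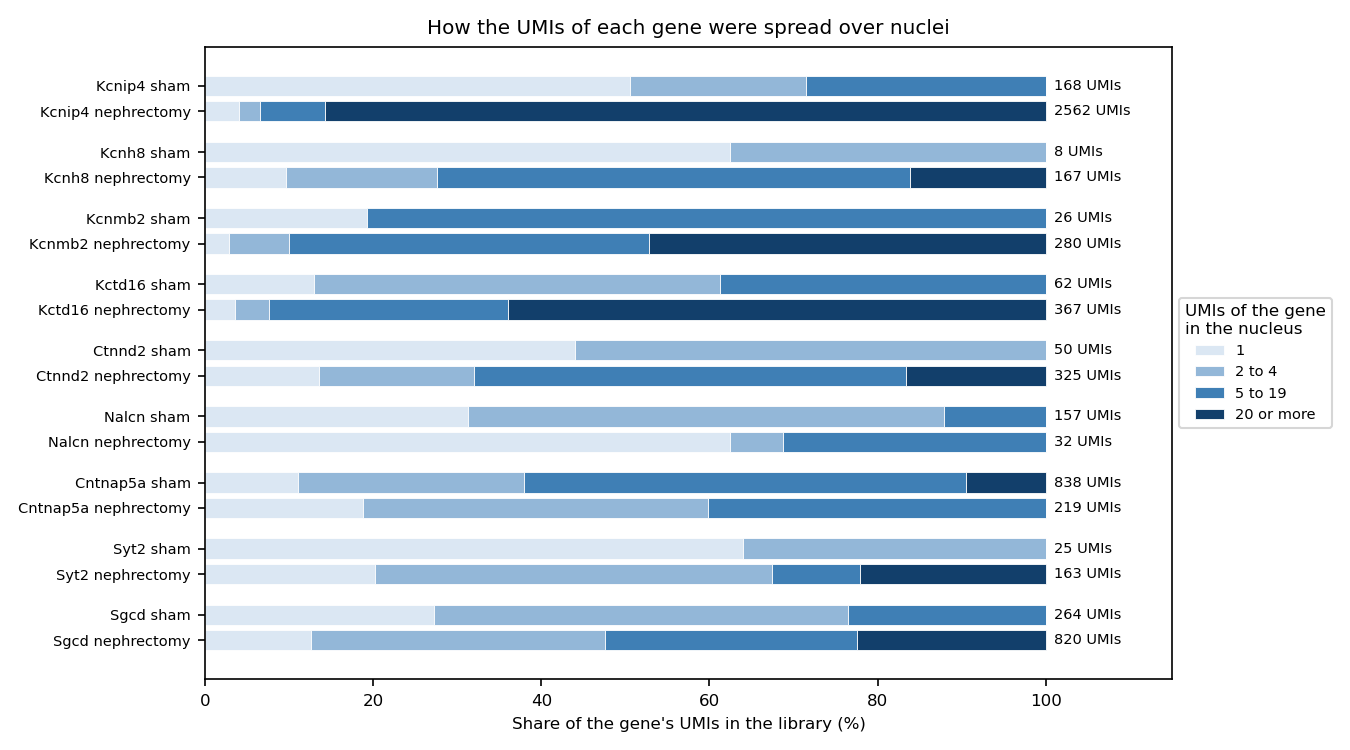
Stacked bars show, for each gene and library, the share of its UMIs (percent of the gene's UMIs in that library) found in nuclei with 1, 2 to 4, 5 to 19, or 20 or more UMIs of the gene. For Kcnip4 the last group held 85.7% of nephrectomy UMIs in 14 nuclei and no sham UMIs, and for Kctd16 it held 64.0% in 5 nuclei.

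Carriers of both genes tended to carry the injury genes. Vcam1, Havcr1 and Dcdc2a were also among the markers that named the injured clusters, so the shares are given for all proximal tubule-like nuclei of the library. Of the 89 nephrectomy carriers of Kcnip4, 24.7% had a Vcam1 UMI (16.2 to 35.0), 11.2% a Havcr1 UMI (5.52 to 19.7) and 32.6% a Dcdc2a UMI (23.0 to 43.3). Among the 1104 nuclei without Kcnip4 the shares were 1.27%, 0.815% and 14.1%. The median depths were 11729 UMIs in carriers and 10061.5 in the others. Among nuclei of 5000 to 15000 UMIs, the carriers' shares were 24.1%, 12.1% and 32.8% against 0.814%, 1.14% and 12.05% in the others. Nuclei with at least 5 Kcnip4 UMIs stood further apart. Of these 24 nuclei, 70.8% carried Vcam1, 41.7% Havcr1 and 70.8% Dcdc2a. In the sham library 0 of 56 Kcnip4 carriers had a Vcam1 or a Havcr1 UMI, with a 95% upper bound of 6.38%, and 23.2% had a Dcdc2a UMI.

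Kcnh8 carriers held the injury genes at higher shares. Of the 29 nephrectomy carriers 62.1% had Vcam1 (42.3 to 79.3), 31.03% had Havcr1 (15.3 to 50.8) and 75.9% had Dcdc2a (56.5 to 89.7). Any of the 3 occurred in 79.3% of carriers and in 15.3% of the other 1164 nuclei. Dcdc2a makes up most of this share and is not limited to injured nuclei: 46.6% of sham and 47.1% of nephrectomy nuclei in the S3-like cluster 7 carried it, as did 62.2% and 66.7% of podocyte-like nuclei. All 12 nuclei with at least 5 Kcnh8 UMIs carried Dcdc2a. With the injured clusters left out, any of the 3 occurred in 20.6% of the remaining 68 Kcnip4 carriers against 14.5% of the others, and in 4 of the remaining 10 Kcnh8 carriers. For Kcnip4 the gap between carriers and other nuclei was therefore much smaller outside the 2 injured clusters.

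**Figure D3:**
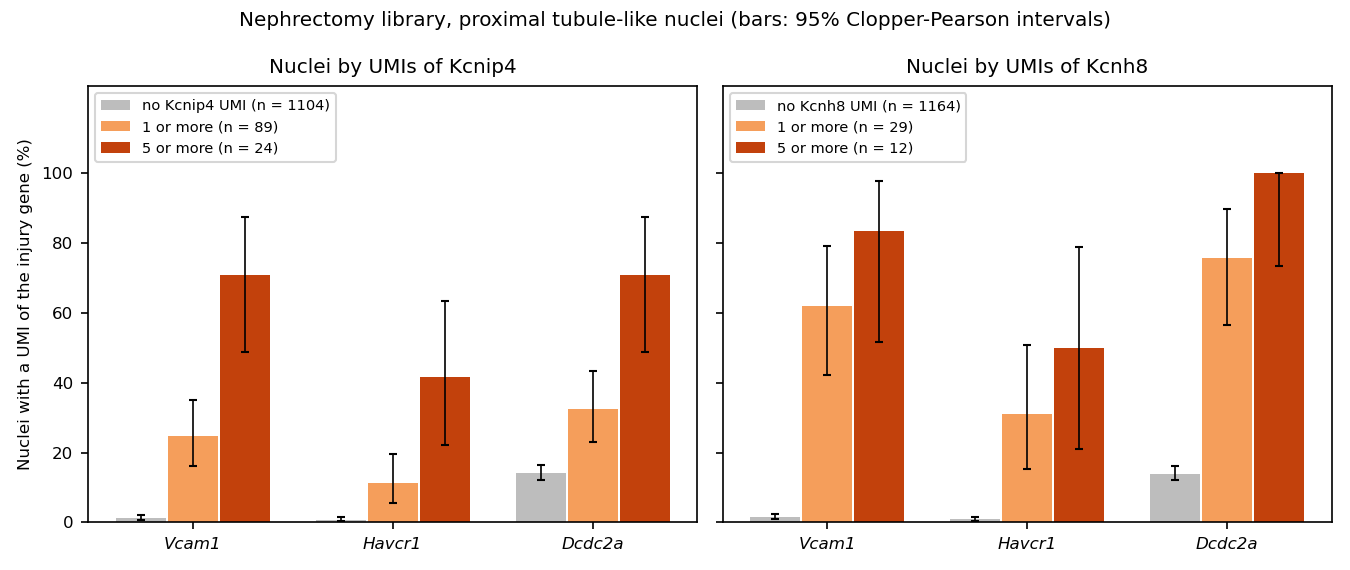
Bars show the percent of nephrectomy proximal tubule-like nuclei with a UMI of Vcam1, Havcr1 or Dcdc2a, for nuclei grouped by their Kcnip4 (left) or Kcnh8 (right) UMIs, with 95% Clopper-Pearson intervals, and nuclei with 5 or more are part of those with 1 or more. The shares climb from 1.27% Vcam1 in nuclei without Kcnip4 to 70.8% in nuclei with at least 5 Kcnip4 UMIs, while the highest Kcnh8 group is at 100% for Dcdc2a.

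The injured class was also checked for other cell types. In nephrectomy its nuclei had 1826 UMIs of the proximal tubule list, and they also had 949 UMIs of the podocyte list and 524 of the parietal epithelial list. All 4 parietal markers and all 7 podocyte markers were detected. The podocyte list stood at 2432 CPM in sham and 2463 CPM in nephrectomy in these nuclei. Over all proximal tubule-like nuclei it stood at 1796 and 2377 CPM, and in thick ascending limb-like nuclei at 1519 and 1747 CPM. All 7 markers were detected in both, so podocyte markers were not particular to the injured class. The parietal list stood at 1396 and 1360 CPM in the injured class, against 413.5 and 415.9 CPM over all proximal tubule-like nuclei. The mononuclear phagocyte list was at 225.1 and 259.5 CPM, from 10 and 100 UMIs, against 48.05 and 44.89 CPM. The blood endothelial list was at 135.1 and 210.2 CPM, from 6 and 81 UMIs, against 34.32 and 31.62 CPM. Not every list was higher: in nephrectomy the intercalated B list was at 12.98 CPM against 14.82 CPM. The part of these lists in the Kcnip4 and Kcnh8 levels was not tested. Podocyte-like nuclei themselves had Kcnip4 at 46.3 CPM in nephrectomy, against 5725 CPM in the injured class.

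The promoters of Kcnip4 and Kcnh8 are shown because these genes were found together in the injured nuclei. Sequences are RefSeq promoters on GRCm38.p6, from 250 bases before to 50 after the start, and 7 of the 9 genes had one. Kcnip4 (ENSMUSG00000029088) spans chr5:48389502-49524907 on the minus strand, and the promoter shown is chr5:49285610-49285909 (minus strand), inside the gene. Kcnh8 (ENSMUSG00000035580) spans chr17:52602709-52979194 on the plus strand, and its promoter is chr17:52602459-52602758. Capitals mark an AP-1 motif.
Kcnip4: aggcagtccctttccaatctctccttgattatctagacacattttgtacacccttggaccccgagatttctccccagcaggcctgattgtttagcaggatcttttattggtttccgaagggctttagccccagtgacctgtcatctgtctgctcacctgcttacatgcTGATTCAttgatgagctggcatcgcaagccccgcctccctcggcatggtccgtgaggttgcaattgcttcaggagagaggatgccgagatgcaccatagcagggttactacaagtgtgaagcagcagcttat
Kcnh8: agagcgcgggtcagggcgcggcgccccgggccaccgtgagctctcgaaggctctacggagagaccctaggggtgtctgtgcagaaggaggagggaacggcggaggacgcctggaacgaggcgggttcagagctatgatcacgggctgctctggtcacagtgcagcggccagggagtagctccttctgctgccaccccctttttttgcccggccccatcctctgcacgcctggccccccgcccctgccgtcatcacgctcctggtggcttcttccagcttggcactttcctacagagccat
The letters searched on both strands were TGANTCA for AP-1 and GTTAAT for an HNF1 core site. The Kcnip4 promoter held TGATTCA, 82 bases before the start. The Kcnh8 promoter and the other Kcnip4 promoter held neither. TGANTCA occurs in 7.81% and GTTAAT in 7.099% of all 32851 promoters, so the match is a description only. The Kcnh8 promoter had 66% G and C and 21 CpG, against medians of 52.7% and 7 over all promoters, and the Kcnip4 promoter shown had 51% and 7.

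Nalcn and Cntnap5a were the 2 genes with fewer UMIs after nephrectomy, and both marked proximal tubule nuclei of the sham library. Nalcn had 126 UMIs in 63 sham proximal tubule-like nuclei and 10 UMIs in 10 nephrectomy nuclei. The levels were 11.5 and 0.734 CPM, a ratio of 0.0636 (0.0298 to 0.121), or 15.7-fold lower in nephrectomy, and 0.0404 without the 5 richest nuclei of each library. Carriers were 5.89% of sham and 0.838% of nephrectomy nuclei. Endothelial-like nuclei, as background, had 2 sham and 0 nephrectomy Nalcn UMIs. Cntnap5a had 737 UMIs in 186 sham nuclei and 191 UMIs in 68 nephrectomy nuclei. Its levels were 67.5 and 14.0 CPM, a ratio of 0.208 (0.176 to 0.244), or 4.82-fold lower. Unlike Kcnip4, both genes were spread over many nuclei, with at most 9 Nalcn and 23 Cntnap5a UMIs in any sham proximal tubule-like nucleus.

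Most UMIs of both genes lay in proximal tubule clusters that the libraries filled unevenly. Cluster 9, with 275 sham and 5 nephrectomy nuclei, held 108 sham Nalcn UMIs in 51 nuclei and 528 sham Cntnap5a UMIs in 114 nuclei. Its 5 nephrectomy nuclei had 0 Nalcn UMIs and 7 Cntnap5a UMIs, all 7 in 1 nucleus. It was named S2-like, but its leading genes included Slc7a13, an S3 marker, so clusters are compared here by number and not by segment. Cluster 13, named S1-like, with 120 sham and 15 nephrectomy nuclei, held 10 Nalcn and 65 Cntnap5a UMIs in sham and 0 of either in nephrectomy. Cluster 2 was filled the other way, with 80 sham and 524 nephrectomy nuclei, and there Cntnap5a stood at 23.7 CPM in sham and 14.9 CPM in nephrectomy, a ratio of 0.630 (0.382 to 1.09). In the S3-like cluster 7, shared by both libraries with 178 and 153 nuclei, Cntnap5a had 114 and 83 UMIs, for a ratio of 0.739 (0.550 to 0.989). Nalcn there had 5 and 6 UMIs. Outside the proximal tubule, Cntnap5a also had fewer UMIs in nephrectomy in clusters that both libraries filled. The unnamed, shallow cluster 1 (381 sham and 310 nephrectomy nuclei) had 26 and 1 Cntnap5a UMIs, with a ratio of 0.0503 (0.00123 to 0.306), and 7 and 0 Nalcn UMIs. Distal convoluted tubule-like nuclei had 9 and 1 Cntnap5a UMIs, and the fibroblast-like cluster 8 had 11 and 0. Over the 3 proximal tubule clusters with at least 50 nuclei of each library, weighted equally, the ratios were 0.698 for Nalcn and 0.702 for Cntnap5a. The 2 genes met in the same sham nuclei: 38 carried both, which was 44.7% of Nalcn and 16.4% of Cntnap5a carriers.

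**Figure D4:**
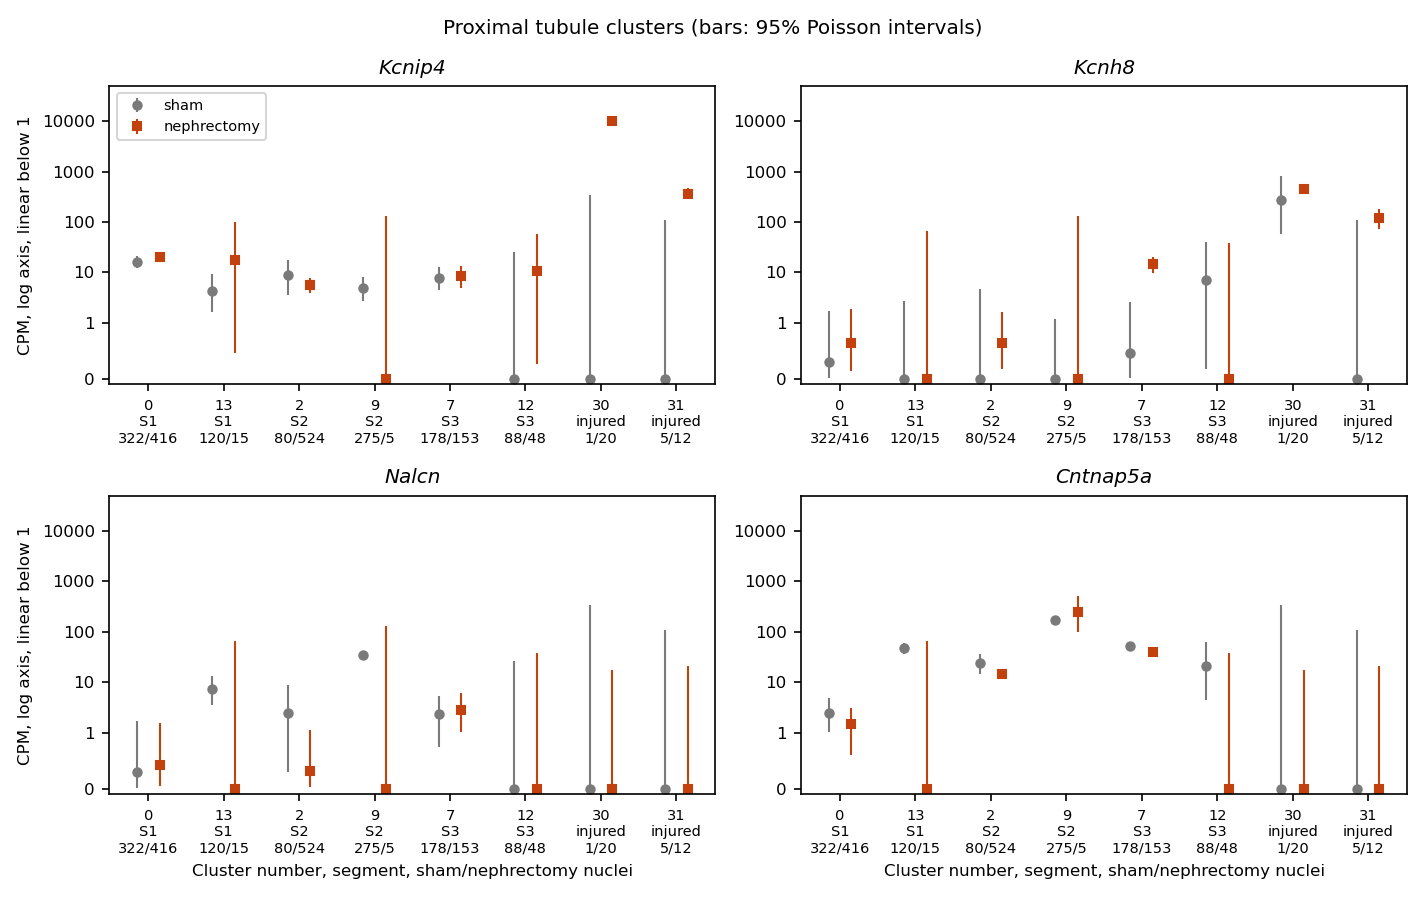
Panels plot the level of Kcnip4, Kcnh8, Nalcn and Cntnap5a (CPM, linear below 1 and logarithmic above) in each proximal tubule cluster for the sham and nephrectomy libraries, with 95% Poisson intervals. Kcnip4 reaches 10211 CPM in cluster 30 of the nephrectomy library, and Cntnap5a is at 169.4 CPM in cluster 9, which has 275 sham and 5 nephrectomy nuclei.

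Other values moved with these 2 genes. Kap, an androgen-responsive kidney gene, was at 6124 CPM in sham and 1158 CPM in nephrectomy proximal tubule-like nuclei, in the same direction as Nalcn and Cntnap5a. Both libraries were male by their Uty UMIs, 5699 in sham and 8394 in nephrectomy. The part of Kap or of androgen state in the result was not tested, and library and treatment cannot be told apart. Of the injury genes, carriers of Nalcn and Cntnap5a held Dcdc2a only at appreciable shares. Among 63 sham Nalcn carriers 0 had Vcam1 or Havcr1, with a 95% upper bound of 5.69%, and 19.05% had Dcdc2a against 13.4% of the other nuclei. Among 186 sham Cntnap5a carriers 1 had Vcam1, 2 had Havcr1 and 25.3% had Dcdc2a, against 11.3% of the others for Dcdc2a, at median depths of 12887.5 and 8506 UMIs. Fibroblast-like nuclei had 3 sham and 12 nephrectomy Nalcn UMIs, under the minimum of 20. Cluster 16 had 1 and 12 of these, the 12 in 4 nuclei, and cluster 8 had 2 and 0. A small unnamed cluster of 9 sham and 13 nephrectomy nuclei, led by cell cycle genes, held 37 sham Cntnap5a UMIs, of which 35 lay in 1 nucleus.

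**Figure D5:**
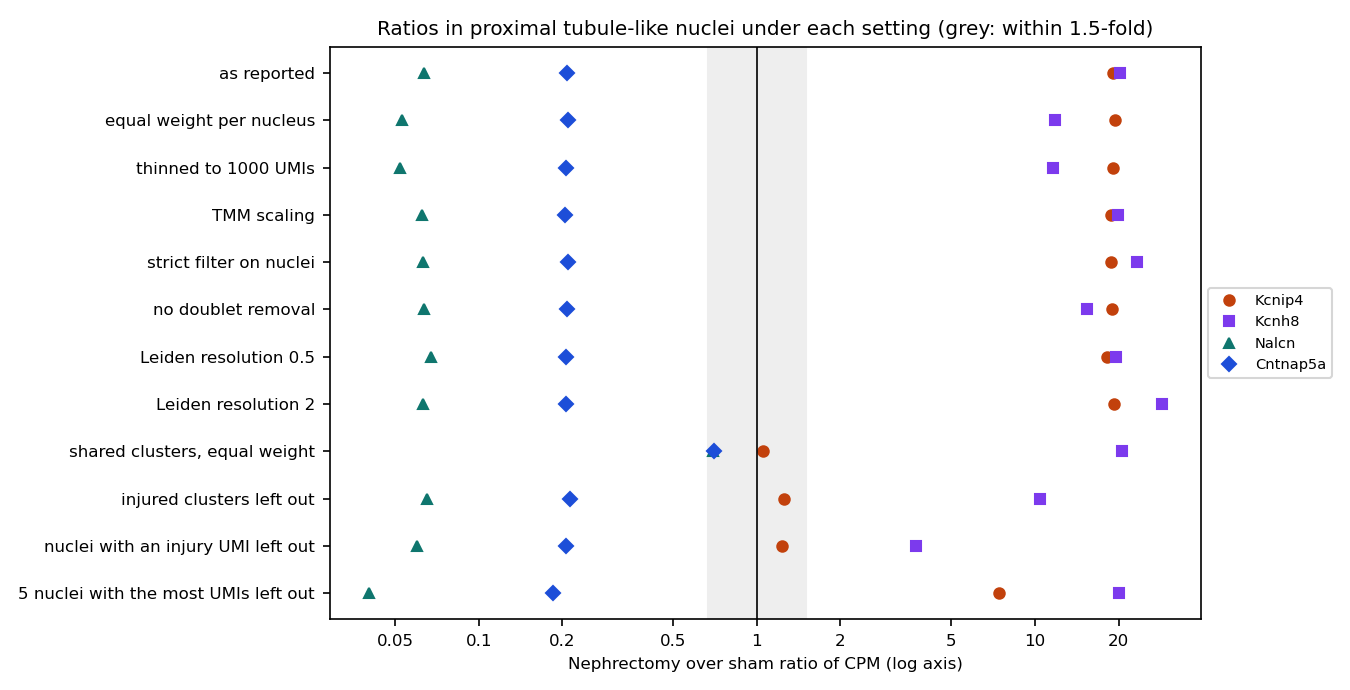
Points show the nephrectomy over sham ratio of CPM in proximal tubule-like nuclei (log axis) for the genes under each processing setting, with the band within 1.5-fold in grey. The ratio of Kcnip4 goes from 19.1 to 1.25 without the injured clusters, and those of Nalcn and Cntnap5a from 0.0636 and 0.208 to 0.698 and 0.702 in shared clusters. The Kcnh8 point without its 5 richest nuclei is a lower bound against a floor of 3 counts, and in shared clusters the Nalcn point lies behind that of Cntnap5a.

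In thick ascending limb-like nuclei, the segment that dilutes the urine, 4 of the 9 genes reached 20 UMIs. Ctnnd2, Syt2 and Sgcd were each at least 1.5-fold higher in nephrectomy, beside 9.18% of all genes tested, and the ratio of Kcnip4 was 1.30 (0.810 to 2.12). The genes were picked on the contrast between the libraries, so nothing is read from this count. Ctnnd2, Syt2 and Sgcd reached the minimum only with their nephrectomy UMIs. Ctnnd2 had 15 UMIs in 8 of 393 sham nuclei and 194 UMIs in 32 of 364 nephrectomy nuclei, or 6.33 and 70.3 CPM, a ratio of 11.1 (6.57 to 20.2). Syt2 had 5 UMIs in 3 sham nuclei and 98 UMIs in 31 nephrectomy nuclei, or 2.11 and 35.5 CPM, a ratio of 16.8 (6.97 to 53.0). Sgcd had 9 UMIs in 8 sham nuclei and 107 UMIs in 36 nephrectomy nuclei, or 3.797 and 38.74 CPM, a ratio of 10.2 (5.18 to 22.9). In all 3 genes the share of carriers was higher in nephrectomy as well: 8.79% against 2.04% for Ctnnd2, 8.52% against 0.763% for Syt2 and 9.89% against 2.04% for Sgcd. Median depths were 5626 UMIs in sham and 6865 in nephrectomy, and the shares at 1000 UMIs were 3.85% against 0.427%, 2.43% against 0.0904% and 3.02% against 0.541%.

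Some settings moved these ratios by over 1.5 times. Without the 5 richest nuclei of each library Ctnnd2 was at 30.4 and Sgcd at 16.05, a finer clustering (resolution 2) gave 17.6 for Ctnnd2, and equal weight per nucleus gave 31.02 for Syt2. Ctnnd2 had 15 and Sgcd 9 sham UMIs in the class before any nucleus was left out. The values without the 5 richest nuclei thus rest on few sham UMIs.

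The class had 2 clusters, and both libraries filled both. In cluster 4 (198 sham and 213 nephrectomy nuclei), Ctnnd2 had 4 and 174 UMIs, Syt2 had 4 and 76, and Sgcd had 6 and 94. In cluster 6 (195 and 151 nuclei), Ctnnd2 had 11 and 20 UMIs, Syt2 had 1 and 22, and Sgcd had 3 and 13. The difference of Ctnnd2 was thus mainly in cluster 4, with a ratio of 30.6 (11.8 to 113.7) there and 1.91 (0.874 to 4.42) in cluster 6, whereas Syt2 was higher in nephrectomy in both, at 13.4 (5.02 to 50.4) and 23.2 (3.74 to 955.6). Few nuclei held most of the UMIs: 6 nuclei held at least 50% of the nephrectomy Ctnnd2 UMIs in the class, with up to 30 in 1 nucleus, and 4 nuclei did so for Syt2, with up to 36. Over the whole nephrectomy library 17 nuclei carried both genes, 19.3% of Ctnnd2 and 25% of Syt2 carriers, and 21 carried Ctnnd2 and Sgcd.

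Of the injury genes, Dcdc2a went with Ctnnd2 in this segment. Among the 32 nephrectomy carriers of Ctnnd2, 62.5% had a Dcdc2a UMI (43.7 to 78.9), against 7.23% of the 332 other nuclei, at median depths of 9027.5 and 6759 UMIs. Of the 15 nuclei with at least 5 Ctnnd2 UMIs, 86.7% had Dcdc2a (59.5 to 98.3). For Syt2 carriers the share was 41.9% against 9.31%, and for Sgcd carriers 38.9% against 9.15%. None of the 32, 31 and 36 carriers had a Vcam1 or Havcr1 UMI, with a 95% upper bound of 10.9% for 0 of 32. Dcdc2a itself had 28 sham and 168 nephrectomy UMIs in the class, a ratio of 5.15 (3.44 to 7.98). In sham 1 of 8 Ctnnd2 carriers had Dcdc2a. Thick ascending limb-like carriers thus shared Dcdc2a with the injured proximal tubule-like carriers of Kcnip4. The whole class had only 5 Vcam1 and 4 Havcr1 UMIs in its 364 nephrectomy nuclei. With so few UMIs, their absence from the carriers cannot set these carriers apart from those of the proximal tubule.

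The same genes had smaller numbers in the next segments. Ctnnd2 had 1 sham UMI and 50 nephrectomy UMIs in principal-like nuclei, the latter in 10 of 80 nuclei and at most 13 in 1 nucleus, and 0 and 22 in distal convoluted tubule-like nuclei, the 22 in 8 of 219 nuclei. Syt2 had 2 and 16 UMIs in distal convoluted tubule-like nuclei and 6 and 14 in connecting tubule-like nuclei, where its ratio was 1.31 (0.474 to 4.17). In thin limb-like nuclei, of which there were 24 and 17, Syt2 was at 35.1 and 116.3 CPM. Mononuclear phagocyte-like nuclei had Ctnnd2 at 90.0 CPM in sham and 85.0 CPM in nephrectomy, close to each other.

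The promoters of Ctnnd2 and Syt2 are shown because the genes were found together in cluster 4. Ctnnd2 (ENSMUSG00000022240) spans chr15:30172593-31029341 on the plus strand, and its promoter is chr15:30172284-30172583. Syt2 (ENSMUSG00000026452) spans chr1:134646677-134762593 on the plus strand, and the promoter shown is chr1:134709050-134709349, inside the gene. Capitals mark an AP-1 motif.
Ctnnd2: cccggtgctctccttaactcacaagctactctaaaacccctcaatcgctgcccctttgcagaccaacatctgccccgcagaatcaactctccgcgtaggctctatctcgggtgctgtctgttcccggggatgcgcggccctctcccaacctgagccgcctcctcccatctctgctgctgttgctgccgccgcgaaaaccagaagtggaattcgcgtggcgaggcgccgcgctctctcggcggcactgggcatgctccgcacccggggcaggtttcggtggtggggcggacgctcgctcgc
Syt2: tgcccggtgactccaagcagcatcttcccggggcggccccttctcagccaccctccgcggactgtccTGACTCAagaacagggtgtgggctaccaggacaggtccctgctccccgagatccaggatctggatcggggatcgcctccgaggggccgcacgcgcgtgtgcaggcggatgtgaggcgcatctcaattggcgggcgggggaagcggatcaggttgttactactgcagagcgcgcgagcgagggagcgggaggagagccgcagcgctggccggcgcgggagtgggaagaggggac
The Syt2 promoter held TGACTCA, 183 bases before the start. The Ctnnd2 promoter, the other Syt2 promoter and the promoters of Kcnmb2, Nalcn and Sgcd held neither motif. Both promoters shown are rich in CpG, with 28 each.

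Sgcd had 130 sham and 243 nephrectomy carriers spread over many classes. In most of the collecting duct its levels were close between the libraries. Principal-like nuclei were at 137.3 CPM in sham and 155.3 CPM in nephrectomy, with a ratio of 1.13 (0.810 to 1.60), and carriers were 42.6% and 48.8% of nuclei. Connecting tubule-like nuclei were at 82.7 and 101.6 CPM, a ratio of 1.23 (0.886 to 1.72), and intercalated A-like nuclei at 98.8 and 103.4 CPM. The intervals of these 3 ratios include 1. Intercalated B-like nuclei were at 171.4 and 299.2 CPM, a ratio of 1.75 (1.25 to 2.49), and distal convoluted tubule-like nuclei at 18.3 and 40.1 CPM, a ratio of 2.19 (1.39 to 3.57). In proximal tubule-like nuclei Sgcd was low, at 2.01 and 2.57 CPM. Its ratio over all nuclei, 2.37 (2.06 to 2.73), was 1.57 when shared clusters were weighted equally.

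Kctd16 was a gene of intercalated cells, the acid-base cells of the collecting duct. Intercalated B-like nuclei, which secrete bicarbonate, had 35 UMIs in 7 of 33 sham nuclei and 304 UMIs in 20 of 51 nephrectomy nuclei. The levels were 139.6 CPM (97.2 to 194.1) and 483.8 CPM (430.9 to 541.4), giving a nephrectomy to sham ratio of 3.47 (2.44 to 5.07). The ratio was 8.43 without the 5 richest nuclei of each library, a value that rests on few sham UMIs, since sham had 7 carriers. In this class 3 of the 9 genes reached 20 UMIs and all 3, Kcnip4, Kctd16 and Sgcd, were at least 1.5-fold higher in nephrectomy, beside 21.5% of all genes tested. The genes were picked on the contrast between the libraries, so nothing is read from this count. Kcnip4 had 3 sham and 32 nephrectomy UMIs there, so it reached the minimum only through nephrectomy. Kctd16 carriers were 21.2% (8.98 to 38.9) in sham and 39.2% (25.8 to 53.9) in nephrectomy, and these intervals overlap. The richest nucleus had 10 UMIs in sham and 77 in nephrectomy, where 3 nuclei held at least 50% of the UMIs. Intercalated A-like nuclei were at 98.8 and 128.6 CPM, a ratio of 1.30 (0.740 to 2.39). Proximal tubule-like nuclei, with 1 and 3 UMIs in 1069 and 1193 nuclei, give the background. Markers of other classes differed between the libraries in both directions in these nuclei. The proximal tubule list stood at 498.4 CPM in sham and 1915 CPM in nephrectomy intercalated B-like nuclei, with all 7 markers detected in each. The podocyte list stood at 55.8 and 646.1 CPM, with 2 and 6 of 7 detected. The blood endothelial list stood at 19.94 and 391.5 CPM, from 5 and 246 UMIs, with 4 and 7 of 7 detected. The thick ascending limb list stood at 462.5 and 1283 CPM. The connecting tubule list was lower in nephrectomy, at 7420 and 1870 CPM. So were the distal convoluted tubule list, at 1998 and 1200 CPM, and the principal list, at 267.1 and 143.2 CPM. The class's own list was at 12898 and 9886 CPM. The part of these lists in the Kctd16, Kcnip4 and Sgcd levels there was not tested. Kctd16 carriers rarely held the injury genes: 2 of the 20 nephrectomy carriers had any of the 3, against 12.9% of the other 31 nuclei.

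Kcnmb2 was a gene of parietal epithelial-like nuclei, of which there were 7 in sham and 22 in nephrectomy. It had 24 UMIs in 5 sham nuclei and 244 UMIs in 18 nephrectomy nuclei, at 816.5 CPM (523.2 to 1215) and 1588 CPM (1395 to 1800). The ratio within the class was 1.95 (1.28 to 3.09), against 8.22 (5.49 to 12.8) over all nuclei, where the different numbers of these nuclei also enter. The value over all nuclei was 39.1 in shared clusters, those with at least 50 nuclei of each library. These leave out the parietal epithelial-like class, and the sham side there rests on 1 UMI, in a distal convoluted tubule-like nucleus. The value was 49.7 without the 5 richest nuclei of each library. Of the 26 sham UMIs, 21 lay in 2 nuclei and the rest in nuclei with 1 UMI each, so few are then left. Both values thus rest on very few sham UMIs. Carriers were 71.4% and 81.8% of the class. The class met all 4 of its own markers and 4 of the 8 injury markers, and 16 of the 18 nephrectomy Kcnmb2 carriers had Dcdc2a. The podocyte list was also present, at 1803 and 2896 CPM, beside 1796 and 2377 CPM over all proximal tubule-like nuclei. Its part in the Kcnmb2 level was not tested. Outside the class Kcnmb2 was nearly absent, with 19 nephrectomy UMIs in 6 of 1193 proximal tubule-like nuclei, of which 15 were in cluster 31. Sgcd occurred in 11 of the 29 nephrectomy Kcnmb2 carriers.

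Kcnma1, the pore of the BK channel that Kcnmb2 modifies, was 1 of 100 genes in 9 lists of partners and relatives. In proximal tubule-like nuclei it had 1796 sham and 4400 nephrectomy UMIs, or 164.4 and 322.8 CPM, a ratio of 1.96 (1.86 to 2.08), with 426 and 701 carriers. In parietal epithelial-like nuclei, where Kcnmb2 was found, it was at 544.3 and 1048 CPM, with a ratio of 1.93 (1.15 to 3.45) close to that of Kcnmb2 itself. In injured proximal tubule-like nuclei it had 4 and 116 UMIs. Of the other 7 genes of its list none reached 20 UMIs in proximal tubule-like nuclei.

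Over the 9 lists 56 of 100 genes reached 20 UMIs in proximal tubule-like nuclei, 10 were at least 1.5-fold higher in nephrectomy and 8 at least 1.5-fold lower, beside 12.2% and 10.9% of all genes tested. In the A-type channel list, which holds the pores that Kcnip4 binds, 4 of 8 genes were tested and 2 were higher, with a median log2 ratio of 0.56 against 0.04 over all genes. Kcnip2, a relative of Kcnip4, had 57 and 212 UMIs, for a ratio of 2.98 (2.22 to 4.07), in 46 and 153 carriers. The other was Kcnd3, a pore gene, with 7 and 15 UMIs and a ratio of 1.72 (0.659 to 4.98), an interval that includes 1. The pore genes Kcnd1, with 1 and 2 UMIs, and Kcnd2, with 4 and 6, did not reach 20 UMIs. All 3 tested relatives of Kcnh8 were within 1.5-fold, from Kcnh4 at 0.730 (0.591 to 0.901) to Kcnh1 at 1.31 (0.88 to 1.95).

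The receptor that Kctd16 serves was also measured. In proximal tubule-like nuclei, 5 of 8 genes of the GABA-B list were tested, 1 was higher and none lower, with Gabbr1 at 1.28 (1.08 to 1.51) and Gabbr2 at 0.874 (0.470 to 1.64). The 1 that was higher was Kctd8, another subunit of the family, with 9 and 36 UMIs and a ratio of 3.21 (1.52 to 7.57). In intercalated B-like nuclei, where Kctd16 itself was found, 3 of the 8 were tested, 1 higher and 1 lower. Of all 6771 genes tested there, 1457 were at least 1.5-fold higher and 1035 at least 1.5-fold lower. Gabbr1 was at 1.52 (0.548 to 5.20), from 5 and 19 UMIs. The 1 gene of the list that was lower was Kctd12, at 0.355 (0.169 to 0.737), which was chosen for naming after its values were seen. Of the NALCN complex in proximal tubule-like nuclei 3 of 4 genes were tested and 2 were lower, with a median log2 ratio of -0.90. These were Fam155a, with 25 and 16 UMIs and a ratio of 0.513 (0.256 to 0.999), and Tmem28, with 15 and 10 UMIs and a ratio of 0.534 (0.215 to 1.27). Of the partners of the channel, Unc79 had 18 and 25 UMIs, and Unc80 had 4 and 2.

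Among cadherins and catenins in proximal tubule-like nuclei, 11 genes were tested, 1 was higher and 2 lower, with a median log2 ratio of -0.13. Cdh6, a cadherin of the proximal tubule, had 81 and 257 UMIs, for a ratio of 2.54 (1.97 to 3.31), while Arvcf, a close relative of delta-catenin, was at 0.632 (0.535 to 0.747) and Ctnna2 at 0.655 (0.624 to 0.687). Of the CNTNAP and contactin list 4 of 12 were tested, none was higher and 1, Cntn5 at 0.622 (0.452 to 0.854), was lower, with a median of 0.01. Of the synaptotagmin and release list 10 of 25 were tested, none was higher and 1, Syt11 at 0.489 (0.333 to 0.712), was lower, with a median of 0.13. Snap25, which release needs in neurons, had 1 sham and 0 nephrectomy UMIs. Of the sarcoglycan and dystrophin list 15 of 17 were tested, 5 were higher and 2 lower, with a median of 0.34. Dtna, a dystrophin partner, was at 2.95 (2.17 to 4.07) and Sgcz, the zeta-sarcoglycan gene, at 2.72 (1.95 to 3.86), while Dmd was at 1.31 (1.11 to 1.53) and Utrn at 1.26 (1.13 to 1.42). In thick ascending limb-like nuclei, the main site of Ctnnd2 and Syt2, 9 cadherin and catenin genes were tested, of which Cdh6 was higher, at 1.54 (1.22 to 1.97), and none lower. None of 6 synaptotagmin and release genes was past 1.5-fold either way there. Of all 11988 genes tested in the class, 1101 were at least 1.5-fold higher and 1501 at least 1.5-fold lower. Of 15 sarcoglycan and dystrophin genes 4 were higher and 1 lower, and these were chosen for naming after their values were seen. The higher ones were Sntg1 at 1.98 (1.19 to 3.38), Sspn at 1.72 (0.648 to 5.03), Dtnb at 1.62 (1.44 to 1.83) and Sntg2 at 1.59 (0.591 to 4.72), and the lower one was Sgcb at 0.644 (0.348 to 1.18).

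The genes whose levels over 11 classes in both libraries were most like each member are named by Pearson's r of log2(CPM + 10) over 22 points that share libraries, among 10326 genes. Kcnip4 was closest to Ugt1a10 (r = 0.728) and Cyp27b1 (0.702), and Kcnh8 to Abcb1b (0.838), Ugt1a10 (0.824) and Cyp27b1 (0.784). Kctd16 was closest to Hepacam2 (0.976), Rp1 (0.956) and Tshr (0.950), and Cntnap5a to Cyp4a32 (0.882), Vmn1r18 (0.881) and Slc47a2 (0.872). Nalcn was closest to Apbb1ip (0.801), Cisd3 (0.722) and Cyp51 (0.712). Apbb1ip and Cisd3 were highest in nephrectomy fibroblast-like nuclei, where Nalcn had only 12 UMIs, and Cyp51 was highest in sham proximal tubule-like nuclei. Ctnnd2 was closest to Dnah12 and Nek11 (both 0.792), and Syt2 to Nek11 (0.748) with Ctnnd2 next (0.740). Sgcd was closest to Naaladl2 (0.937), Tmem117 (0.899) and Slc44a3 (0.898). Kcnmb2 had its best matches at Uroc1 (0.739) and Dnajc6 (0.702), with the parietal epithelial-like class too small to be among the points.

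All 9 are long genes. Their spans ran from 115.9 kb for Syt2 to 1135 kb for Kcnip4, at the 92.9th to 99.9th percentile of gene length in the GENCODE M21 annotation of GRCm38, with exons covering 0.319% to 6.59%. Kcnmb2 (ENSMUSG00000037610) spans chr3:31902507-32200180, Nalcn (ENSMUSG00000000197) chr14:123276634-123627144, Cntnap5a (ENSMUSG00000070695) chr1:115684756-116587323, Sgcd (ENSMUSG00000020354) chr11:46896253-47988969, and Kctd16 (ENSMUSG00000051401) lies on chromosome 18. Genes on the other strand of a member could share its reads, since use of strand in the counting is not stated in the sources used here. Inside Kcnip4, 5730480H06Rik had 532 sham and 790 nephrectomy UMIs, for a ratio of 1.13 (1.01 to 1.27), and in the injured nuclei 3 and 10, against 0 and 2206 for Kcnip4. Overlapping Syt2, Ppp1r12b had 228 and 338 UMIs in thick ascending limb-like nuclei, a ratio of 1.27 (1.07 to 1.51), against 16.8 for Syt2. The opposite-strand genes that overlap Kctd16 and Ctnnd2 had at most 3 UMIs in either library.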

How the data were processed

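Single-nucleus libraries of 1 sham and 1 nephrectomy kidney sample were analysed. The deposited values are UMI counts per gene and nucleus, made by the authors with Cell Ranger (7.1.0 per the submitters' processing notes, 7.0.1 per the file headers) on mm10. Whether introns or strand were used in counting is not given in the sources used here. Barcodes with under 200 genes or over 10% mitochondrial UMIs were removed, as were the top 3% of doublet scores per library and clusters with at least 20% such nuclei (118 sham and 129 nephrectomy nuclei), because the caller's own threshold marked 0 and 1. Nuclei were clustered with scanpy 1.11.5 and leidenalg 0.10.2 (2000 variable genes, 30 components, 15 neighbours, resolution 1) without the 9 genes, their family lists, and the injury, mitochondrial and ribosomal genes. Mixed clusters were split again, giving 33 clusters, of which 31 were named from markers (at least 3 met, at 2-fold and 5% of nuclei). The splitting and naming rules were chosen after seeing the data. Unnamed nuclei numbered 390 and 323.

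UMIs were summed per library and class, and CPM and ratios computed with exact Poisson, Clopper-Pearson and conditional binomial intervals (scipy 1.17.1). Ratios are read from 20 UMIs over both libraries, with 1.5-fold as the threshold. Scripts were tested on simulated data. The members and lists were chosen with earlier results of these data known. Every member is named. Of each family list the text names the 2 highest and 2 lowest in proximal tubule-like nuclei at most, and core partners. Further list genes named for intercalated B-like and thick ascending limb-like nuclei were chosen after their values were seen. The most similar genes are up to 3 by Pearson's r among genes with at least 300 UMIs. Alternatives were TMM scaling (edgeR 4.0.16, used for scaling factors alone), thinning, equal weight per nucleus, a stricter nucleus filter, no doublet removal, other clustering resolutions, shared clusters, nuclei left out and no UMI minimum. Longer motifs (HNF1, HNF4, NF-kappaB and the androgen response element) were also searched, and none was found in the members' promoters.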

Additional observations from a re-analysis of the deposited data

Results flagged for a closer look

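Nalcn UMIs were fewer in nephrectomy in 1 class and more in another. The nephrectomy over sham ratio was 0.06361 in proximal tubule-like nuclei, from 126 sham and 10 nephrectomy UMIs, and 5.416 in fibroblast-like nuclei, from 3 sham and 12 nephrectomy UMIs. Neither 95% counting interval included 1, but the fibroblast-like count is under the minimum of 20 UMIs set for reading a ratio, and its clusters differ, with 1 and 12 UMIs in cluster 16 and 2 and 0 in cluster 8. The difference between the classes was not tested, since each group is 1 library, and the fibroblast-like value rests on 3 sham and 4 nephrectomy nuclei.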

How the results depend on the processing

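Of 136 alternative values, 114 stayed within the counting interval of the reported value or within 1.5 times a reported count, 22 moved further and 0 changed direction. Direction was judged only for reported ratios past 1.5-fold. The Sgcd ratio in proximal tubule-like nuclei, 1.275, was not among these values. It was 0.7933 with equal weight per nucleus, 0.779 at 1000 UMIs per nucleus and 0.612 without nuclei holding an injury gene UMI. Nor was the Kcnmb2 ratio in these nuclei, 15.23, which rests on 1 sham UMI. It was 1.08 at resolution 2, 3.075 at resolution 0.5, 1.095 without the injured clusters and 1.925 with no doublet removal. In the 3 proximal tubule clusters shared by both libraries, the ratio was 1.051 for Kcnip4 (19.08 reported), 0.6976 for Nalcn (0.06361) and 0.7023 for Cntnap5a (0.2077), and 2 of the 9 genes, not 6, were past 1.5-fold. Shared clusters gave 39.1 for Kcnmb2 (8.216) and 1.569 for Sgcd (2.37) over all nuclei, and no value for intercalated B-like nuclei. They leave out the parietal epithelial-like class, so the Kcnmb2 value rests on very few sham UMIs. Kcnip4 was at 1.253 without the injured clusters and 1.231 without nuclei holding an injury gene UMI, where Kcnh8 was at 3.737 (20.3). Without the 5 nuclei richest in each gene in each library, the ratios were 7.424 for Kcnip4, 49.66 for Kcnmb2, 8.426 for Kctd16 (3.467) and 30.42 for Ctnnd2 (11.1). For Kcnmb2, Kctd16 and Ctnnd2 these rest on few remaining sham UMIs. At 1000 UMIs per nucleus the Sgcd ratio was 2.038, and the nephrectomy over sham ratio of carrier shares was 3.017 for Kcnip4 (1.424), 0.05554 for Nalcn (0.1422, and 0.06162 at 3000 UMIs) and 0.2306 for Cntnap5a (0.3276). Without the injured clusters 20.59% of Kcnip4 carriers and 40% of Kcnh8 carriers held an injury gene (38.2% and 79.31%). With no UMI minimum 25 family genes were higher and 17 lower (10 and 8). The cause was not tested beyond what each setting leaves out. Depth limits genes with few UMIs, such as Kcnh8 in sham with 8. No paired analysis was possible because each group has 1 library and no test was made.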
